A study of Mus musculus with 57 samples.

Results

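The genes described here were 10 cardiac transcription factors, *Gata4*, *Gata6*, *Mef2a*, *Mef2c*, *Nkx2-5*, *Tbx5*, *Tbx20*, *Hand2*, *Srf* and *Myocd*, taken by symbol from the gene counts of 40 acute and 17 chronic mouse hearts. They were 10 of the 25416 genes counted in the acute and of the 54658 genes counted in the chronic study. All 10 passed the low-count filter in both studies, which kept 14240 acute and 14960 chronic genes. All mice were wild-type (WT) males of the C57BL/6 strain. In the acute study, mice bought at 9 weeks of age received saline vehicle (Ctrl, n = 14), a single intraperitoneal dose of 20 mg/kg doxorubicin with vehicle (Doxo, n = 13), or the same dose with 180 mg/kg/day of nicotinamide mononucleotide by intraperitoneal injection (Doxo-NMN, n = 13). NMN was started 5 days before doxorubicin, and hearts were taken 5 days after it, so the hearts of both doxorubicin groups came from mice that were alive on day 5. The study reports higher survival to that day with NMN than with doxorubicin alone. The part of this selection in the results was not tested. In the chronic study, mice of 14 to 16 weeks received PBS (Ctrl, n = 5), 5 intraperitoneal doses of 4 mg/kg doxorubicin within 2 weeks (Doxo, n = 6), or the same doses with 500 mg/kg/day NMN in the drinking water (Doxo-NMN, n = 6), and hearts were taken 60 days after the first dose. Per the study, some mice of both chronic doxorubicin groups also died before that day. Doxorubicin is an anthracycline chemotherapy drug with known heart toxicity, and NMN is a precursor of NAD+. No group received NMN without doxorubicin.

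These factors bind DNA and together keep heart muscle genes active. GATA4 and GATA6 are zinc finger proteins that bind the sequence GATA. The MEF2 proteins and SRF belong to the MADS box family; SRF binds the CArG box, a CC and a GG around an A- and T-rich core, and does little alone. Its partners decide which genes it drives: myocardin (the product of *Myocd*) and the related MRTF proteins for genes of the contractile machinery and the actin skeleton, and the ternary complex factors for genes of the rapid growth response. NKX2-5 is a homeobox factor, TBX5 and TBX20 are T-box factors, and HAND2 is a basic helix-loop-helix factor. TBX5 is known for its atrial and conduction system roles and its stronger expression in atria than in ventricles of the adult heart.

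Acute hearts had total counts between 32409622 and 52102850, chronic hearts between 17769886 and 23862287, and every member had at least 327 counts in every heart. Levels are given as CPM, the read counts of a gene scaled to the size of its library after normalization for composition. The summed level of 8 cardiomyocyte markers was between 31600 and 84200 CPM in every acute heart, with a median of 68100 in acute Ctrl, 56000 in Doxo and 73500 in Doxo-NMN hearts. These markers were *Myh6*, *Tnnt2*, *Tnni3*, *Actc1*, *Myl2*, *Ryr2*, *Pln* and *Ttn*. *Actc1* and *Myh6* are also read below as targets of these factors, so the sum is not independent of them. In bulk tissue, fewer cells of a type and less RNA per cell cannot be told apart. *Myl4*, an atrial myosin light chain, was at 100 CPM or more in 17 acute hearts (8 Ctrl, 5 Doxo and 4 Doxo-NMN) and below it in the other 23 acute hearts and in all chronic hearts. The acute library labelled Doxo replicate 6 stood apart from the other Doxo hearts in its red cell marker sum. This was 338 CPM, against a Doxo median of 2.30 and a Ctrl median of 1110. It lay within the Ctrl range for 7 of the 10 members and above it for *Gata4*, *Mef2c* and *Nkx2-5*. Lying within the Ctrl range did not alone set it apart, since Doxo replicate 7 did so for *Gata4*, *Nkx2-5*, *Tbx5*, *Tbx20*, *Hand2* and *Myocd*. Of the 13 Doxo hearts, however, replicate 6 was lowest in *Mef2a*, *Tbx5*, *Hand2* and *Myocd* and highest in *Gata4*. It was also the only Doxo heart not above every Ctrl heart in the *Gata6* to *Gata4* and *Myocd* to *Srf* ratios given below. Neutrophil markers, at a median of 2.43 CPM in acute Ctrl hearts, were at 14.9 in Doxo (up to 258) and 9.31 in Doxo-NMN hearts, and their part in the results was not tested. Results that rest on Doxo replicate 6 are given with and without it.

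In GENCODE M21 on GRCm38 (the coordinates of mm10), *Gata4* lies at chr14:63198922-63271692 on the minus strand, *Mef2a* at chr7:67231163-67372858 on the minus strand, *Mef2c* at chr13:83504034-83667080 on the plus strand, *Nkx2-5* at chr17:26838664-26845009 on the minus strand and *Tbx5* at chr5:119832668-119885219 on the plus strand. *Tbx20* lies at chr9:24718138-24774303 on the minus strand, *Hand2* at chr8:57320983-57324633 on the plus strand, *Srf* at chr17:46548329-46556175 on the minus strand and *Myocd* at chr11:65176561-65269989 on the minus strand. All are protein-coding genes, and counts were taken over whole genes. *Hand2* overlaps *Hand2os1* on the opposite strand, *Srf* overlaps *Gm26904*, *Mef2a* overlaps *Lysmd4*, and the start of *Gata6* overlaps *Gata6os*. The strand setting of the counting is not given in the sources used here, so that reads of these genes and of their opposite-strand neighbours may not be told apart. *Gata6os*, tested in the chronic study, had 8.38 ± 1.04 CPM in Ctrl hearts against 54.1 ± 11.4 for *Gata6*.

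Upstream sequence was at hand for 6 of the 10 members (RefSeq, GRCm38.p6), as 8 windows of 250 bases before a transcription start, 3 of them of *Mef2c*. The windows below show *Srf* beside its muscle targets *Acta1* (skeletal alpha-actin) and *Actc1* (cardiac alpha-actin), all of which fell after acute doxorubicin, then *Hand2*, which rose, and *Nkx2-5*, which did not pass the test. Bases in capitals mark CArG boxes and the letters GATA on either strand (GATA or TATC).
Srf (chr17:46556163-46556412, minus strand): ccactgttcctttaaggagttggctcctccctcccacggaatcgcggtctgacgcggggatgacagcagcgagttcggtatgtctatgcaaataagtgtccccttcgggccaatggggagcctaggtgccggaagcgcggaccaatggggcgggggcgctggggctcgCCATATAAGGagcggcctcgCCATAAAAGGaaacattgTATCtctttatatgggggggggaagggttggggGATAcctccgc
Acta1 (chr8:123894776-123895025, minus strand): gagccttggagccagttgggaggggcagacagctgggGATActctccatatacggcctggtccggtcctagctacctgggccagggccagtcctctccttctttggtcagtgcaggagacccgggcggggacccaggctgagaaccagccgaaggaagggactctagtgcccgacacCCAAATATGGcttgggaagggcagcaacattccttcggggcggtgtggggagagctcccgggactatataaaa
Actc1 (chr2:114052876-114053125, minus strand): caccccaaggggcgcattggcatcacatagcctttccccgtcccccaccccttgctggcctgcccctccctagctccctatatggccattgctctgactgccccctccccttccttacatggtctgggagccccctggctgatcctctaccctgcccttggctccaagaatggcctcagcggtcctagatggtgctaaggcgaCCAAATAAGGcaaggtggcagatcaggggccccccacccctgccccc
Hand2 (chr8:57320733-57320982, plus strand): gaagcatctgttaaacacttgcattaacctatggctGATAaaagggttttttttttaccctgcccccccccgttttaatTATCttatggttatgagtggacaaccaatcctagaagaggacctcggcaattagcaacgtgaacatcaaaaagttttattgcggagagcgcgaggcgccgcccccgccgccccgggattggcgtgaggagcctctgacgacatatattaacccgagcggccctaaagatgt
Nkx2-5 (chr17:26841566-26841815, minus strand): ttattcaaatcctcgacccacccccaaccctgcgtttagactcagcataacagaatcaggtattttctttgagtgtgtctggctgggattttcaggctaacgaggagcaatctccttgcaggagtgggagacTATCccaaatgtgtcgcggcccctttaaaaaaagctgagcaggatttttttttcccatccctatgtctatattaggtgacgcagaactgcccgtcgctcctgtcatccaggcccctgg
The *Srf* window held 2 CArG boxes, and those of *Acta1* and *Actc1* held 1 each. The windows of *Ccn1*, *Fos* and *Junb*, SRF targets with higher levels in Doxo than in Ctrl hearts, held no CArG box. Sequence beyond these 250 bases was not searched, so boxes farther from the start would be missed. Whether the motif goes with the direction of a change was not tested. Of all 32851 windows of this length, 1.5% held a CArG box, and among the 8 windows of members only that of *Srf* did. GATA was found in 6 of the 8 member windows and in 53.6% of all windows. The MEF2 site (2.9% of all windows) and TNAAGTG (10.1%), the letters of an NKX2-5 element, were in none of the 8. Both strands were searched, and the motifs did not exclude each other. A match is a description of the letters and not a bound site.

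Per kilobase of exon, using the merged GENCODE exons since the authors' annotation is not given in the sources used here, *Srf* and *Nkx2-5* had the highest levels in acute Ctrl hearts, at 31.8 ± 2.76 and 29.6 ± 1.59 CPM per kb, with overlapping ranges. *Gata4* followed at 24.03 ± 1.46, below both without overlap with *Nkx2-5*. *Hand2* was at 16 ± 2.87 and *Mef2a* at 14.3 ± 0.799, with overlapping ranges. *Gata6* (9.79 ± 0.527 CPM per kb), *Tbx20* (9.52 ± 0.941), *Tbx5* (8.46 ± 4.39) and *Myocd* (6.82 ± 0.675) each overlapped the next in order. *Mef2c* was lowest, at 3.61 ± 0.275, and did not reach the *Myocd* range. In chronic Ctrl hearts *Nkx2-5* stood first, at 67.3 ± 11.3 CPM per kb, above the range of *Srf* at 33.6 ± 8.19, and *Mef2c* had the lowest mean, at 4.06 ± 0.817, overlapping the range of *Myocd* at 4.37 ± 1.001. The studies differed in site and mice and were normalized separately, so these levels were set side by side and not tested.

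The first comparison asked how acute doxorubicin moved these factors by day 5. It split them: *Gata6*, *Hand2*, *Myocd* and *Mef2a* were higher in Doxo than in Ctrl hearts, *Srf* and *Gata4* were lower, and *Mef2c*, *Nkx2-5*, *Tbx5* and *Tbx20* did not pass the test. The largest differences were 1.58-fold for *Hand2* and 1.55-fold for *Gata6*, the only members past the study's 1.5-fold limit. When single hearts were left out their log2 differences went down to 0.54 and 0.57, below that limit. In this comparison 6 of 10 members passed at an adjusted p under 0.05, where 68.1% of all genes passed (34.8% higher and 33.3% lower), and 2 of 10 also passed the 1.5-fold limit, where 30.1% did. The median log2 fold change of the members was 0.17, and that of all genes was -0.0016.

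**Figure D1:**
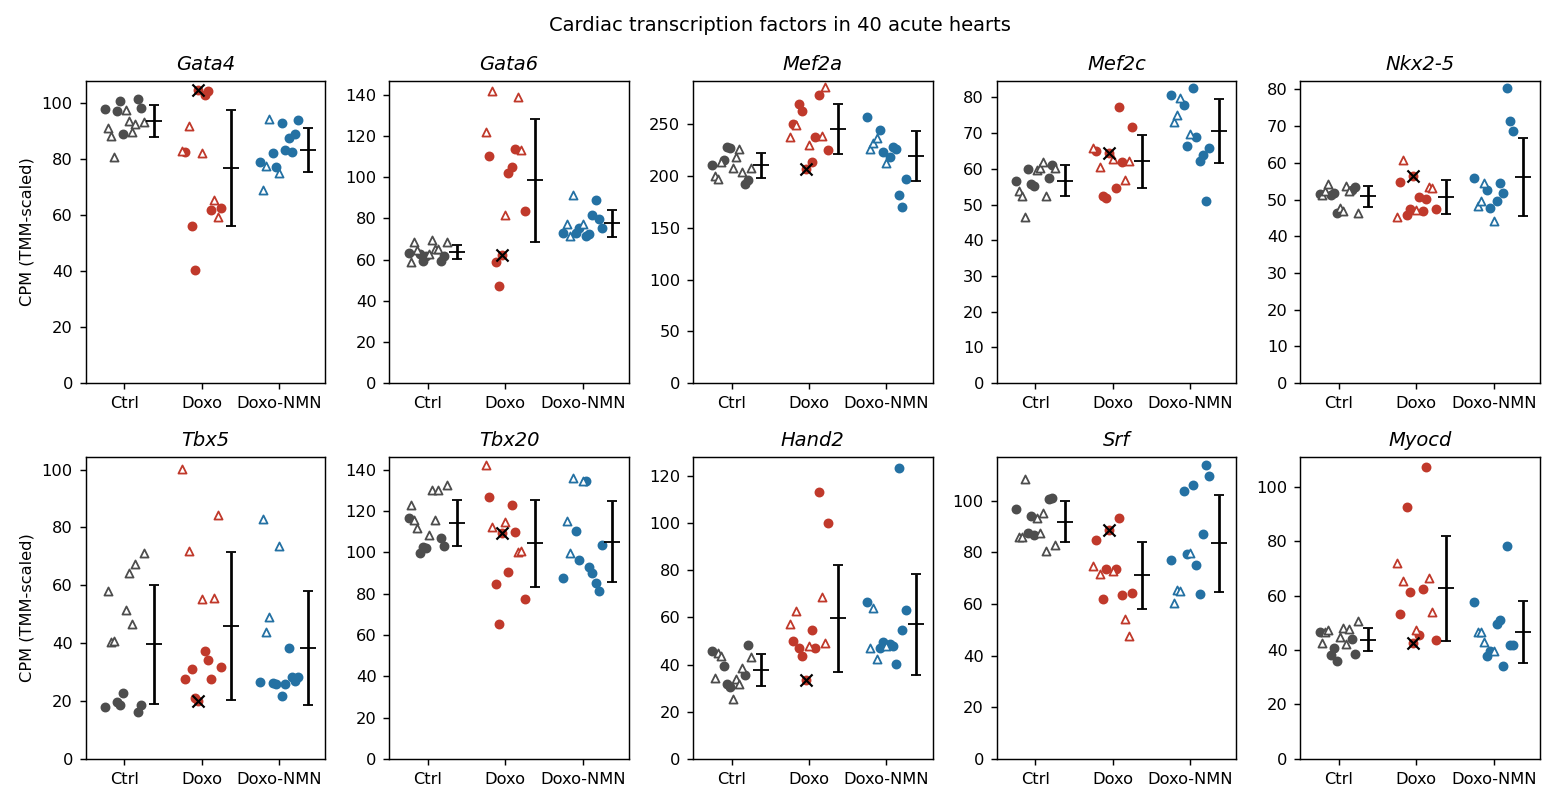
CPM of each of the 10 members (y axes, from 0) in every acute heart of the Ctrl, Doxo and Doxo-NMN groups; filled circles are hearts with Myl4 below 100 CPM, open triangles hearts at or above it, the cross is the library labelled Doxo replicate 6, and bars show mean ± SD. Gata4, Gata6, Hand2 and Myocd scatter more widely in Doxo than in Ctrl hearts, and Tbx5 separates by Myl4 in all groups.

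The paired GATA factors moved in opposite directions. The lowest, median and highest levels of *Gata6* were 58.9, 63.1 and 69.3 CPM in Ctrl, 47.1, 105 and 142 in Doxo and 71.4, 75.6 and 91.3 in Doxo-NMN hearts. In the Doxo group 10 of the 13 Doxo hearts lay above all Ctrl hearts and 2 lay below all of them, and the difference was 0.63 ± 0.11 (SE; edgeR adjusted p = 2.5e-06) on the log2 scale. *Gata4*, with 80.8, 93.6 and 102 CPM in Ctrl, 40.5, 82.2 and 105 in Doxo and 69.1, 82.7 and 94.4 in Doxo-NMN hearts, fell by 0.29 ± 0.09 on the log2 scale (SE; edgeR adjusted p = 0.0069). Its Doxo hearts fell on both sides of the controls: 6 were below every Ctrl heart and 3 above every Ctrl heart. Without Doxo replicate 6 (among those 3) the difference of *Gata4* was -0.33 (edgeR adjusted p = 0.0016). The pair of Doxo hearts lowest in *Gata4*, replicates 5 and 4, were also the lowest in *Gata6*.

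Of the MEF2 factors, *Mef2a*, the major adult form, rose by a small amount, 0.22 ± 0.05 (SE; edgeR adjusted p = 4.5e-04) on the log2 scale. Its levels were 192, 209 and 228 CPM in Ctrl, 206, 238 and 286 in Doxo and 169.8, 226 and 257 in Doxo-NMN hearts, and 10 of 13 Doxo hearts exceeded every Ctrl heart. *Mef2c* was at 56.7 ± 4.31 CPM in Ctrl, 62.1 ± 7.32 in Doxo and 70.5 ± 8.91 in Doxo-NMN hearts (mean ± SD) and differed between Doxo and Ctrl by 0.13 (edgeR adjusted p = 0.055).

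*Hand2* had 25.6, 36.96 and 48.1 CPM in Ctrl, 33.6, 49.98 and 113 in Doxo and 40.5, 48.9 and 123 in Doxo-NMN hearts, and rose by 0.66 ± 0.15 (SE; edgeR adjusted p = 2.6e-04) on the log2 scale. No Doxo heart was below the Ctrl range and 8 were above it, with replicates 10 and 13 at 113 and 99.98 CPM. Leaving out single hearts moved the difference between 0.54 and 0.71. *Nkx2-5* had the smallest difference of all members, with a 95% interval of -0.14 to 0.13 and means of 50.9 ± 2.74 CPM in Ctrl, 50.7 ± 4.71 in Doxo and 56.1 ± 10.7 in Doxo-NMN hearts. The same interval was -0.32 to 0.06 for *Tbx20*, at 114 ± 11.3 CPM in Ctrl, 104 ± 21.1 in Doxo and 105 ± 19.5 in Doxo-NMN hearts.

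*Srf* and its cofactor gene *Myocd* diverged. *Srf* was at 80.6, 90.4 and 108 CPM in Ctrl, 47.5, 72.7 and 93.2 in Doxo and 60.4, 79.2 and 114 in Doxo-NMN hearts, and fell by 0.37 ± 0.09 on the log2 scale (SE; edgeR adjusted p = 7.5e-04), with 10 of 13 Doxo hearts below every Ctrl heart. *Myocd* was at 35.9, 44.3 and 50.7 CPM in Ctrl, 42.7, 61.4 and 107 in Doxo and 33.95, 43.01 and 78.3 in Doxo-NMN hearts, and rose by 0.51 ± 0.12 (SE; edgeR adjusted p = 1.9e-04), with 9 of 13 Doxo hearts above every Ctrl heart. *Myocd* is also active in smooth muscle cells. The summed smooth muscle markers (*Myh11*, *Acta2*, *Tagln*, *Cnn1* and *Smtn*) had a median of 310 CPM in Ctrl (range 250 to 438) and of 188 in Doxo hearts (88.6 to 306). *Cnn1* is also read below as an SRF target, so the sum cannot tell fewer such cells from lower levels of SRF targets. The part of cell composition in the *Myocd* result was not tested.

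Several members were more widely spread in Doxo than in Ctrl hearts. The coefficient of variation of *Gata4* was 6.08% in Ctrl, 27.01% in Doxo and 9.40% in Doxo-NMN hearts, and that of *Gata6* was 5.39%, 30.4% and 8.28%. *Myocd* varied by 9.89%, 30.8% and 24.3%, and *Hand2* by 17.9%, 38.2% and 37.6%. The spread of the GATA factors was thus near the Ctrl value in Doxo-NMN hearts, while that of *Hand2* was not. The *Hand2* value includes Doxo-NMN replicate 11 at 123 CPM, with the next highest heart, replicate 1, at 66.3. In *Myocd* the same hearts were highest, at 78.3 and 57.6 CPM. Spreads without replicate 11 were not computed. *Nkx2-5* varied by 5.39%, 9.30% and 19.1%, so that its widest group was Doxo-NMN, where replicates 11, 12 and 13 were highest, at 80.4, 71.5 and 68.7 CPM. These spreads were not tested. Without replicate 6 the Doxo value was 26.6% for *Gata4* and 28.7% for *Gata6*.

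Adding NMN to acute doxorubicin moved 5 of 10 members at an adjusted p under 0.05, where 53% of all genes passed (25.7% higher and 27.4% lower), and none by 1.5-fold, where 17.1% did. *Gata6*, *Mef2a* and *Myocd* were lower in Doxo-NMN than in Doxo hearts, *Srf* and *Mef2c* higher. Each of the first 3 and *Srf* moved toward its Ctrl level, and *Mef2c* moved away from it. *Myocd* differed by -0.42 ± 0.12 (SE; edgeR adjusted p = 0.0031) and *Gata6* by -0.34 ± 0.11 (SE; edgeR adjusted p = 0.007) on the log2 scale. The Doxo-NMN hearts of *Gata6* spanned from 71.4 to 91.3 CPM, inside the wide Doxo range. *Mef2a* differed by -0.16 (edgeR adjusted p = 0.014), *Mef2c* by 0.18 (edgeR adjusted p = 0.013) and *Srf* by 0.23 (edgeR adjusted p = 0.039). The *Srf* difference ranged from 0.19 to 0.28 when single hearts were left out, and lost its call without any of Doxo replicates 4, 10, 11, 12 and 13 or Doxo-NMN replicates 5, 8, 11, 12 and 13. It was 0.24 (edgeR adjusted p = 0.089) with only the compared groups in the fit and 0.07 (edgeR adjusted p = 0.70) in hearts with high *Myl4*, against 0.27 (edgeR adjusted p = 0.058) in hearts with low *Myl4*. *Nkx2-5*, at 0.15 (edgeR adjusted p = 0.065), passed when any single one of Doxo replicates 2, 3 and 6 or Doxo-NMN replicates 2, 3, 6, 7 and 8 was left out. *Gata4* (0.12, edgeR adjusted p = 0.3) and *Hand2* (-0.06, edgeR adjusted p = 0.76) did not pass, and the 95% interval for *Hand2* was -0.38 to 0.26.

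Against Ctrl, 3 of 10 members differed in Doxo-NMN hearts, where 26% of all genes passed (15% higher and 11.1% lower): *Hand2* by 0.60 ± 0.15 (SE; edgeR adjusted p = 0.0037), *Mef2c* by 0.32 ± 0.06 (SE; edgeR adjusted p = 2.5e-04) and *Gata6* by 0.28 ± 0.11 (SE; edgeR adjusted p = 0.042) on the log2 scale. *Hand2*, at 57.1 ± 21.5 CPM, was the only one past 1.5-fold, as were 7.11% of all genes. Its Doxo-NMN median was 48.9 CPM, and replicate 11 was at 123. When single hearts were left out its log2 difference ranged from 0.46 to 0.64. It kept its call at an adjusted p under 0.05, but not the 1.5-fold limit in every fit. *Mef2c* was above every Ctrl heart in 12 of 13 Doxo-NMN hearts, and *Gata6* in all 13, since its Ctrl hearts ended at 69.3 CPM and its Doxo-NMN hearts began at 71.4. Even so, the *Gata6* call was lost without any of Ctrl replicates 1, 2, 4, 5, 6, 7, 8, 12 and 13 or Doxo-NMN replicates 4, 10, 11, 12 and 13, with a difference that stayed between 0.26 and 0.29. It was also lost with limma voom, at 0.28 (adjusted p = 0.0501), and with no low-count filter, at 0.27 (edgeR adjusted p = 0.063). *Srf* (-0.14, edgeR adjusted p = 0.29), *Myocd* (0.09, edgeR adjusted p = 0.59) and *Gata4* (-0.17, edgeR adjusted p = 0.18) did not pass. With only the compared groups in the fit, where 39.7% of all genes passed, *Gata4* passed at -0.17 (edgeR adjusted p = 0.0037) and the call of *Gata6* was kept. The main fit draws on the spread of all 3 groups, and the coefficient of variation of *Gata6* was 5.39% in Ctrl, 30.4% in Doxo and 8.28% in Doxo-NMN hearts. With the atrial markers as a covariate *Srf* passed, at -0.24 (edgeR adjusted p = 0.038). The 3 acute comparisons share hearts and are not independent.

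*Tbx5* followed the atrial marker *Myl4* more closely than the treatment: within every acute group, every heart with high *Myl4* had more *Tbx5* than every heart with low *Myl4*. In hearts with *Myl4* below 100 CPM it was at 19.03 ± 2.14 CPM in Ctrl (n = 6), 28.8 ± 6.05 in Doxo (n = 8) and 27.5 ± 4.47 in Doxo-NMN hearts (n = 9). In hearts at or above that level it was at 54.99 ± 12.01 (n = 8), 73.5 ± 19.3 (n = 5) and 62.4 ± 18.9 (n = 4). Over all hearts, *Tbx5* did not pass between Doxo and Ctrl, at 0.22 (edgeR adjusted p = 0.49) on the log2 scale. Within the hearts with low *Myl4* the same difference was 0.58 (adjusted p = 9.4e-04), and with the summed atrial markers (*Myl4*, *Sln*, *Bmp10*, *Dkk3* and *Stard10*) as a covariate it was 0.57 (adjusted p = 1.7e-06). Within the hearts with high *Myl4* it was 0.43 (adjusted p = 0.05), which did not pass. Doxo-NMN exceeded Ctrl by 0.52 (adjusted p = 0.016) in low hearts and by 0.46 (adjusted p = 4.4e-04) with the covariate, against 0.18 (adjusted p = 0.62) in high hearts. All these p-values are from edgeR, and whether the classes differ from each other was not tested. *Myl4* itself was not equal within a class: it reached 15.7 CPM in low Ctrl and 93.0 in low Doxo hearts, and ran from 796 to 1569 in high Ctrl and from 255 to 592 in high Doxo hearts.

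**Figure D2:**
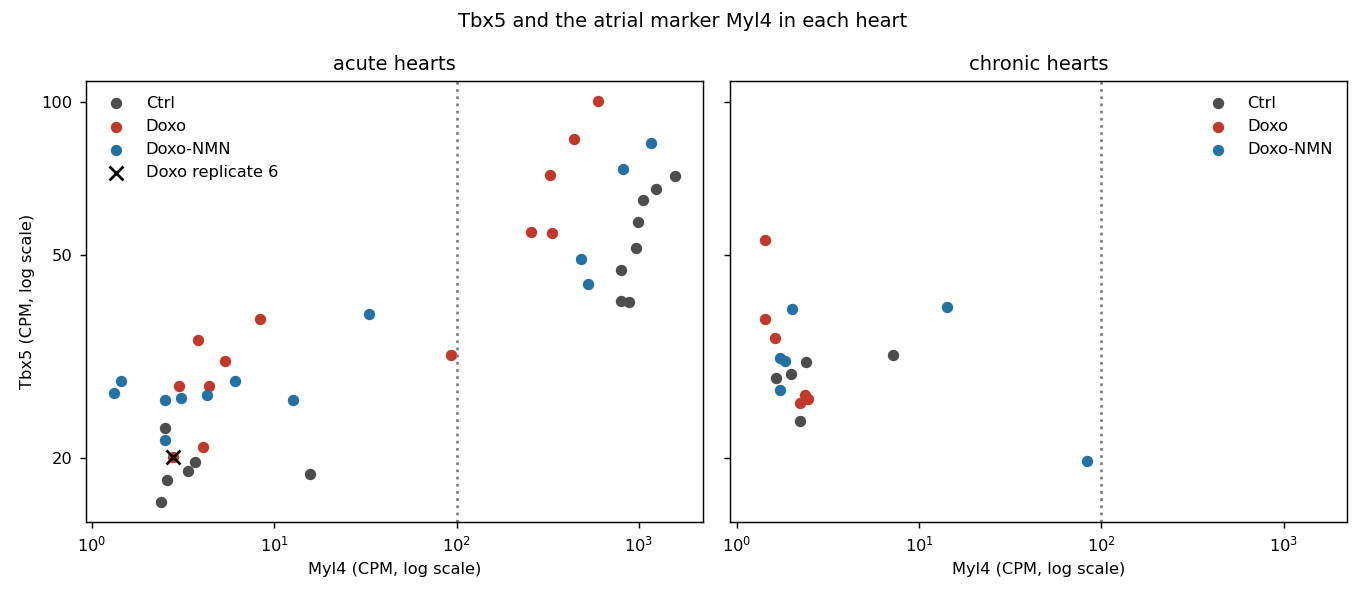
Tbx5 against Myl4 in each acute (left) and chronic (right) heart, both in CPM on log axes, coloured by group; the dotted line is the limit of 100 CPM of Myl4 and the cross is the library labelled Doxo replicate 6. Acute hearts form separate clusters to the left and right of the line, with Tbx5 below 40 CPM on the left and above 40 on the right, and all chronic hearts lie to the left.

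Other members were read within the same classes. In hearts with low *Myl4*, 5 of 10 members passed for Doxo against Ctrl (54.8% of all genes), namely *Gata6*, *Tbx5*, *Hand2*, *Srf* and *Myocd*. *Gata4* did not, at -0.36 (adjusted p = 0.055), but passed in the same hearts without Doxo replicate 6, at -0.44 (adjusted p = 0.015), a setting chosen after the data were seen (61.3% of all genes; 52.5% for Doxo-NMN against Doxo and 15% against Ctrl, with 3 and 1 members). With the atrial covariate, the share of all genes that passed was 70.1%, 57.1% and 27.6% in the 3 comparisons. In those with high *Myl4*, 6 of 10 passed (60.1% of all genes), the same 6 as over all hearts. *Gata6* differed by 0.88 (adjusted p = 1.2e-06), *Hand2* by 0.64 (adjusted p = 3.7e-04), *Srf* by -0.48 (adjusted p = 8.3e-04) and *Myocd* by 0.41 (adjusted p = 4.2e-04). *Hand2* thus differed by nearly the same amount in both classes, 0.65 (adjusted p = 0.038) in low hearts. For Doxo-NMN against Doxo, 1 of 10 members passed in low hearts (39.1% of all genes), *Nkx2-5* at 0.25 (edgeR adjusted p = 0.031), which was -0.09 (edgeR adjusted p = 0.41) in high hearts. Among low Doxo-NMN hearts *Nkx2-5* was highest in replicates 11, 12 and 13, at 80.4, 71.5 and 68.7 CPM. The next, replicate 1, was at 56.0 CPM, and the low Doxo hearts reached 56.4. *Gata6* differed by -0.14 (adjusted p = 0.39) in low and -0.61 (adjusted p = 0.0013) in high hearts, and *Myocd* by -0.40 (adjusted p = 0.077) and -0.49 (adjusted p = 0.0017). With high *Myl4*, 3 members passed in this comparison, *Gata6*, *Mef2c* and *Myocd* (39.3% of all genes). Against Ctrl, 1 of 10 members passed in low hearts, *Tbx5* (7.88% of all genes), and 2 in high hearts, *Mef2c* and *Srf* (9.12%). With edgeR, *Hand2* was at 0.63 (adjusted p = 0.12) in low and 0.44 (adjusted p = 0.052) in high hearts, *Gata6* at 0.31 (adjusted p = 0.17) and 0.28 (adjusted p = 0.11), and *Mef2c* in low hearts at 0.25 (adjusted p = 0.12). *Srf* in Doxo-NMN hearts was lower by the test in high hearts, at -0.41 (adjusted p = 0.03), and was -0.07 (adjusted p = 0.75) in low hearts.

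Ratios of counts within a heart need no scaling between libraries, and each sets a factor beside its partner or relative. The ratio of *Gata6* to *Gata4* was 0.682 ± 0.0671 in Ctrl, 1.33 ± 0.433 in Doxo and 0.935 ± 0.0994 in Doxo-NMN hearts of the acute study. It lay above every Ctrl heart in 12 of 13 Doxo hearts, the library labelled Doxo replicate 6 being the exception, and in 12 of 13 Doxo-NMN hearts. The *Myocd* to *Srf* ratio was 0.481 ± 0.0694 in Ctrl, 0.922 ± 0.369 in Doxo and 0.583 ± 0.173 in Doxo-NMN hearts, above every Ctrl heart in 12 of 13 Doxo hearts (again all but replicate 6) and in 6 of 13 Doxo-NMN hearts, while 3 Doxo-NMN hearts lay below every Ctrl heart. *Mef2c* to *Mef2a* was 0.270 ± 0.0241 in Ctrl, 0.257 ± 0.0439 in Doxo and 0.322 ± 0.0263 in Doxo-NMN hearts, with 3 of 13 Doxo hearts above and 3 below every Ctrl heart, and 9 of 13 Doxo-NMN hearts above and none below. *Tbx5* to *Tbx20* was 0.336 ± 0.148 in Ctrl, 0.435 ± 0.201 in Doxo and 0.360 ± 0.147 in Doxo-NMN hearts and overlapped widely, as did *Tbx5* itself. In the chronic study *Gata6* to *Gata4* was 0.444 ± 0.0352 in Ctrl, 0.539 ± 0.182 in Doxo and 0.507 ± 0.0733 in Doxo-NMN hearts, with 3 of 6 Doxo hearts above and 1 below all 5 Ctrl hearts. *Myocd* to *Srf* was 0.290 ± 0.0169 in Ctrl, 0.368 ± 0.0841 in Doxo and 0.308 ± 0.0416 in Doxo-NMN hearts, with 5 of 6 Doxo hearts above and 1 below all 5 Ctrl hearts. For *Mef2c* to *Mef2a*, 0 chronic Doxo hearts lay above and 1 below all Ctrl hearts. For *Tbx5* to *Tbx20*, 1 lay above and 1 below. These ratios were chosen with the members' results known and were not tested.

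**Figure D3:**
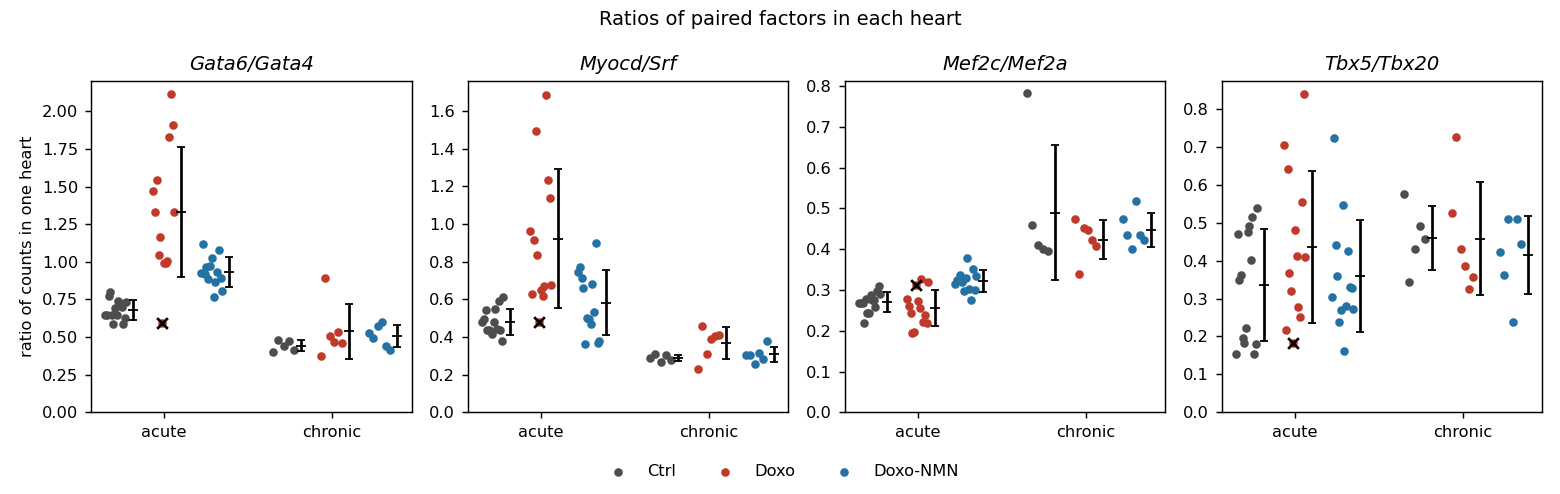
Ratio of the counts of paired factors in each heart (y axes, from 0), by group and study, with mean ± SD; the cross is the library labelled Doxo replicate 6. In acute hearts the Gata6/Gata4 and Myocd/Srf ratios are highest in the Doxo group and lie between Doxo and Ctrl in the Doxo-NMN group.

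Around the members, 27 other transcription factors of the heart were tested in the acute study. After doxorubicin 9 rose and 4 fell (48.1%, against 68.1% of all genes), with a median log2 fold change of 0.11. *Klf15*, a glucocorticoid-responsive metabolic regulator, was at 65.7 ± 8.69 CPM in Ctrl, 128 ± 66.6 in Doxo and 120.3 ± 22.3 in Doxo-NMN hearts, a rise of 0.96 ± 0.18 (SE; edgeR adjusted p = 9.8e-06). *Tbx2*, a T-box repressor, was at 6.18 ± 0.556 CPM in Ctrl, 11.2 ± 3.88 in Doxo and 6.93 ± 1.74 in Doxo-NMN hearts, a rise of 0.86 ± 0.14 (SE; edgeR adjusted p = 1.9e-06). *Nr2f1*, an orphan nuclear receptor, fell by 0.78 on the log2 scale, and *Mef2b* rose by 2.25 from a level of 0.108 CPM. With NMN, 4 rose and 8 fell against Doxo (44.4%, against 53% of all genes), among them *Tbx2* at -0.69 ± 0.14 (SE; edgeR adjusted p = 1.5e-04) and *Tead4*, an effector of Hippo signalling, at -0.60 ± 0.14 (SE; edgeR adjusted p = 5.3e-04). Against Ctrl, 3 were higher and 1 lower in Doxo-NMN hearts (14.8%, against 26% of all genes), with *Klf15* at 0.87 ± 0.18 (SE; edgeR adjusted p = 3.6e-04) and *Esrrb*, an estrogen-related receptor, at 0.57 ± 0.10 (SE; edgeR adjusted p = 5.9e-05).

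Of 23 cofactors, 6 rose and 10 fell after acute doxorubicin (69.6%, against 68.1% of all genes), with a median of -0.02. The SRF partners split: *Mrtfb* rose by 0.99 ± 0.10 (SE; edgeR adjusted p = 4.6e-10), from 31.5 ± 2.75 CPM in Ctrl to 62.8 ± 18.8 in Doxo hearts, while *Mrtfa* fell by 0.51 (edgeR adjusted p = 1.9e-05). *Csrp3*, a muscle LIM protein of the Z-disc, rose by 0.90 ± 0.16 (SE; edgeR adjusted p = 9.4e-06), and *Hdac9*, a histone deacetylase that represses MEF2, fell by 0.68 (edgeR adjusted p = 6.3e-06). With NMN, 6 cofactors were higher and 5 lower than in Doxo hearts (47.8%, against 53% of all genes). *Hdac9* (0.81) and *Mrtfa* (0.51) rose, and *Csrp3* (-0.85) and the ternary complex factor gene *Elk4* (-0.48) fell on the log2 scale. *Mrtfb* stayed above Ctrl in Doxo-NMN hearts, by 0.53 ± 0.10 (SE; edgeR adjusted p = 2.5e-04), and of all 23 cofactors 3 were higher and 4 lower than in Ctrl (30.4%, against 26% of all genes).

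Known SRF targets were read in separate lists by partner. Of 21 targets of SRF with MRTF or myocardin, 4 rose and 11 fell after acute doxorubicin, with a median log2 fold change of -0.36. These were 71.4% of the list, against 68.1% of all genes that passed and 33.3% that fell. *Acta1* was at 230.4 ± 114 CPM in Ctrl, 46.2 ± 43.3 in Doxo and 73.3 ± 36.7 in Doxo-NMN hearts and *Actc1* at 7349 ± 1142 CPM in Ctrl, 3071 ± 2304 in Doxo and 5827 ± 2083 in Doxo-NMN hearts; their log2 differences between Doxo and Ctrl were -2.32 ± 0.33 (SE; edgeR adjusted p = 1.8e-07) and -1.26 ± 0.25 (SE; edgeR adjusted p = 4.3e-05). *Cnn1*, a smooth muscle calponin, fell by 1.29. Those that rose included *Ccn2* (2.30 ± 0.45 SE, edgeR adjusted p = 3.1e-05) and *Ccn1* (1.93 ± 0.34 SE, edgeR adjusted p = 4.7e-06), secreted matrix-associated proteins that are also targets of the YAP pathway. Of 9 targets of SRF with ternary complex factors, 5 rose and 1 fell (66.7%, against 68.1% of all genes), with a median of 0.79. In hearts with low *Myl4*, where 54.8% of all genes passed, the same counts and a median of 0.71 were found. In hearts with high *Myl4*, where 60.1% of all genes passed, 2 rose and 2 fell, with a median of 0.36. The difference between the classes was not tested. *Junb* was at 18.5 ± 5.20 CPM in Ctrl, 129.5 ± 114 in Doxo and 19.04 ± 4.83 in Doxo-NMN hearts and *Fos* at 6.37 ± 5.36 CPM in Ctrl, 29.9 ± 36.9 in Doxo and 3.33 ± 1.61 in Doxo-NMN hearts, while *Egr3* fell by 1.38. With NMN, 5 targets of the first list were higher and 4 lower than in Doxo hearts (42.9%, against 53% of all genes), with *Actc1* at 0.92 ± 0.26 (SE; edgeR adjusted p = 0.0027). Of the second list 6 were lower and none higher (66.7%; of all genes 27.4% were lower), with *Fos* at -3.16 ± 0.52 (SE; edgeR adjusted p = 9.1e-06), *Junb* at -2.76 ± 0.35 (SE; edgeR adjusted p = 4.3e-07) and *Egr1* at -2.17 ± 0.36 (SE; edgeR adjusted p = 1.0e-05). Against Ctrl, 1 of the first list was higher and 7 lower in Doxo-NMN hearts, *Acta1* at -1.65 ± 0.33 (SE; edgeR adjusted p = 2.9e-04) among them, and 1 of the second was higher and 3 lower (38.1% and 44.4%, against 26% of all genes).

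Of 23 heart muscle genes known as targets of the GATA, MEF2, NKX2-5 and T-box factors, 6 rose and 9 fell after acute doxorubicin (65.2%, against 68.1% of all genes), with a median of -0.19. *Myh7*, the slow myosin heavy chain, had the largest difference, 424 ± 37.6 CPM in Ctrl, 9423 ± 5268 in Doxo and 3072 ± 3811 in Doxo-NMN hearts, a log2 difference of 4.48 ± 0.44 (SE; edgeR adjusted p = 1.4e-10). *Ankrd1*, a stretch-responsive titin-binding protein, rose by 2.77 ± 0.44 (SE; edgeR adjusted p = 9.2e-07). *Nppa*, the atrial natriuretic peptide gene, fell by 1.86 (edgeR adjusted p = 0.027) in the fit over all hearts, where *Myl4* was at 100 CPM or more in 8 of 14 Ctrl but 5 of 13 Doxo hearts; the part of atrial tissue in it was not tested. With NMN, 6 were higher and 5 lower than in Doxo hearts (47.8%, against 53% of all genes), with *Myh6*, the fast myosin heavy chain, at 0.82 ± 0.18 (SE; edgeR adjusted p = 3.0e-04) and *Myh7* at -1.62 ± 0.40 (SE; edgeR adjusted p = 9.9e-04). Against Ctrl, 4 were higher and 2 lower in Doxo-NMN hearts (26.1%, against 26% of all genes), *Myh7* by 2.86 ± 0.41 (SE; edgeR adjusted p = 3.9e-06). The lists were written with earlier results of these hearts known, so that their counts are descriptions.

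In the chronic study, 60 days after the first dose, no member passed in any comparison. In Doxo against Ctrl, 0 of 10 passed with edgeR (0.0602% of all genes), and none had an unadjusted p under 0.05 or passed with DESeq2 or limma. The same held for Doxo-NMN against Doxo (0% of all genes) and Doxo-NMN against Ctrl (0.0401%). *Gata6* had the largest log2 difference of the members between Doxo and Ctrl, 0.24 (edgeR adjusted p = 0.74), with a 95% interval of -0.13 to 0.60. Its levels were 33.8, 59.8, 57.0, 59.1 and 60.6 CPM in the Ctrl hearts, 50.8, 59.03 and 95.4 (lowest, median and highest) in the Doxo hearts and 52.8, 69.9 and 78.2 in the Doxo-NMN hearts. Ctrl replicate 1 was low and Doxo replicate 2 was high in it. *Hand2*, at 47.02 ± 11.4 CPM in Ctrl, 49.1 ± 5.17 in Doxo and 52.8 ± 14.1 in Doxo-NMN hearts, differed by 0.06 (edgeR adjusted p = 0.95) with an interval of -0.31 to 0.43, and *Srf*, at 97.2 ± 23.7 CPM in Ctrl, 92.8 ± 21.4 in Doxo and 104 ± 31.1 in Doxo-NMN hearts, by -0.07 (edgeR adjusted p = 0.95) with an interval of -0.51 to 0.37. *Gata4* was at 121 ± 22.7 CPM in Ctrl, 121 ± 18.1 in Doxo and 133 ± 26.6 in Doxo-NMN hearts and *Nkx2-5* at 116 ± 19.4 CPM in Ctrl, 117 ± 20.7 in Doxo and 128 ± 32.96 in Doxo-NMN hearts. The remaining members had log2 differences between Doxo and Ctrl from -0.12 for *Mef2c* to 0.23 for *Tbx5*. Ctrl replicate 1 had the lowest Ctrl level of 9 of the 10 members and the highest of *Mef2c*, and Doxo-NMN replicate 4, with the highest *Myl4* of the chronic hearts at 83.7 CPM, had the lowest Doxo-NMN level of 7 of 10. No member passed when any single heart was left out. None of the other factors, cofactors or targets passed either.

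**Figure D4:**
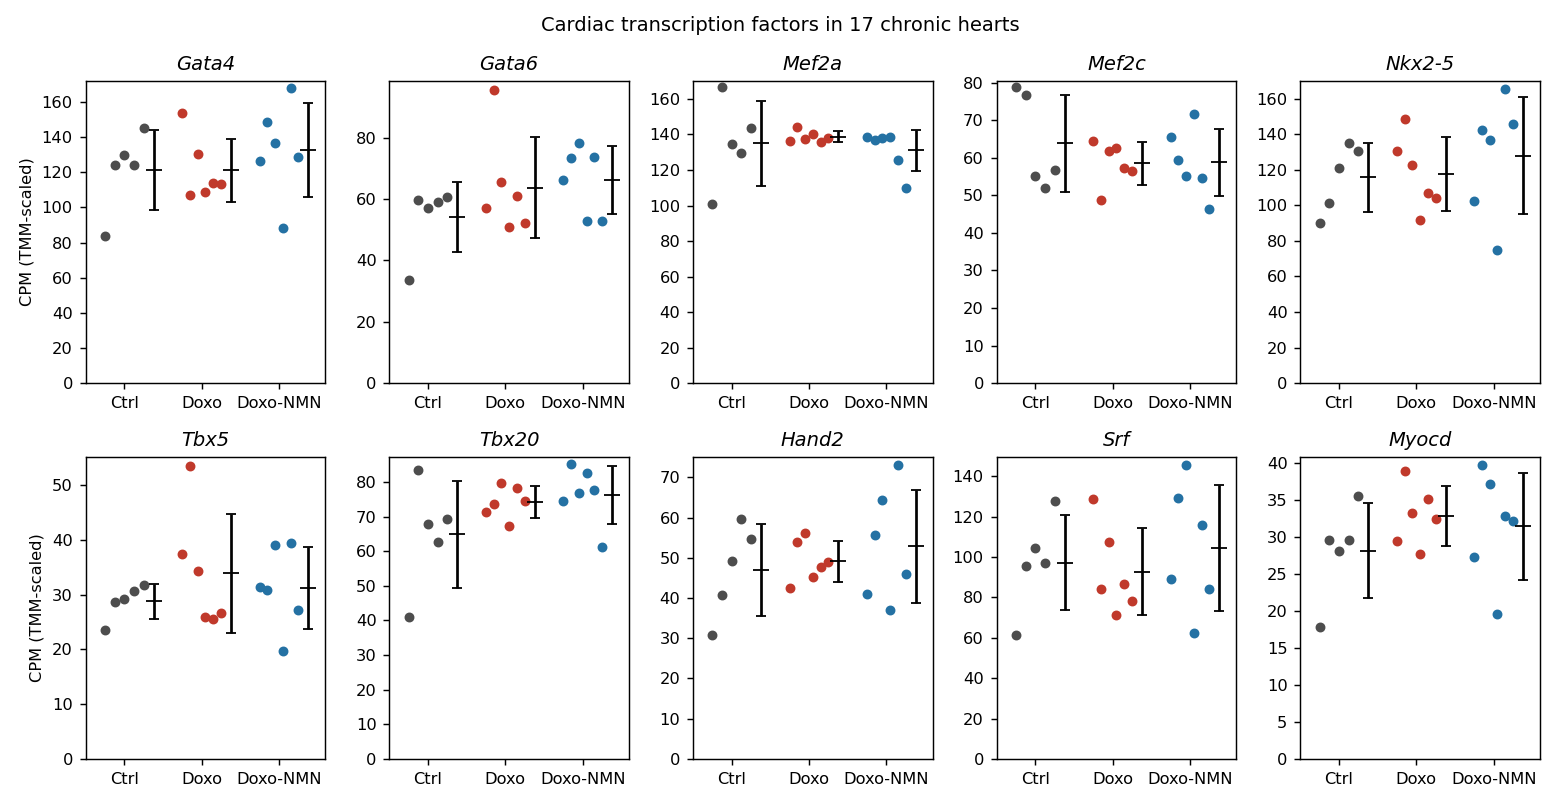
CPM of each of the 10 members (y axes, from 0) in every chronic heart of the Ctrl, Doxo and Doxo-NMN groups, with mean ± SD. The groups overlap for every member, and single hearts such as Ctrl replicate 1 for Gata6 and Tbx20 lie far from the rest of their group.

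The acute and chronic effects of doxorubicin were also compared directly, as the interaction of study and treatment over the acute and chronic Ctrl and Doxo groups. With edgeR 0 of 10 members passed, where 19.3% of 14965 genes did. *Hand2* came nearest, with an acute effect larger by 0.60 ± 0.25 on the log2 scale (SE; edgeR adjusted p = 0.085). *Hand2* and *Mef2c* had an unadjusted p under 0.05. Without the acute library labelled Doxo replicate 6, *Hand2* passed, at 0.65 (adjusted p = 0.037) with edgeR. For *Gata6* the difference of effects was 0.39 ± 0.23 and for *Gata4* -0.29 ± 0.19 (adjusted p = 0.23 and 0.29). Regimen, time point, mouse source and sequencing site cannot be told apart here.

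**Figure D5:**
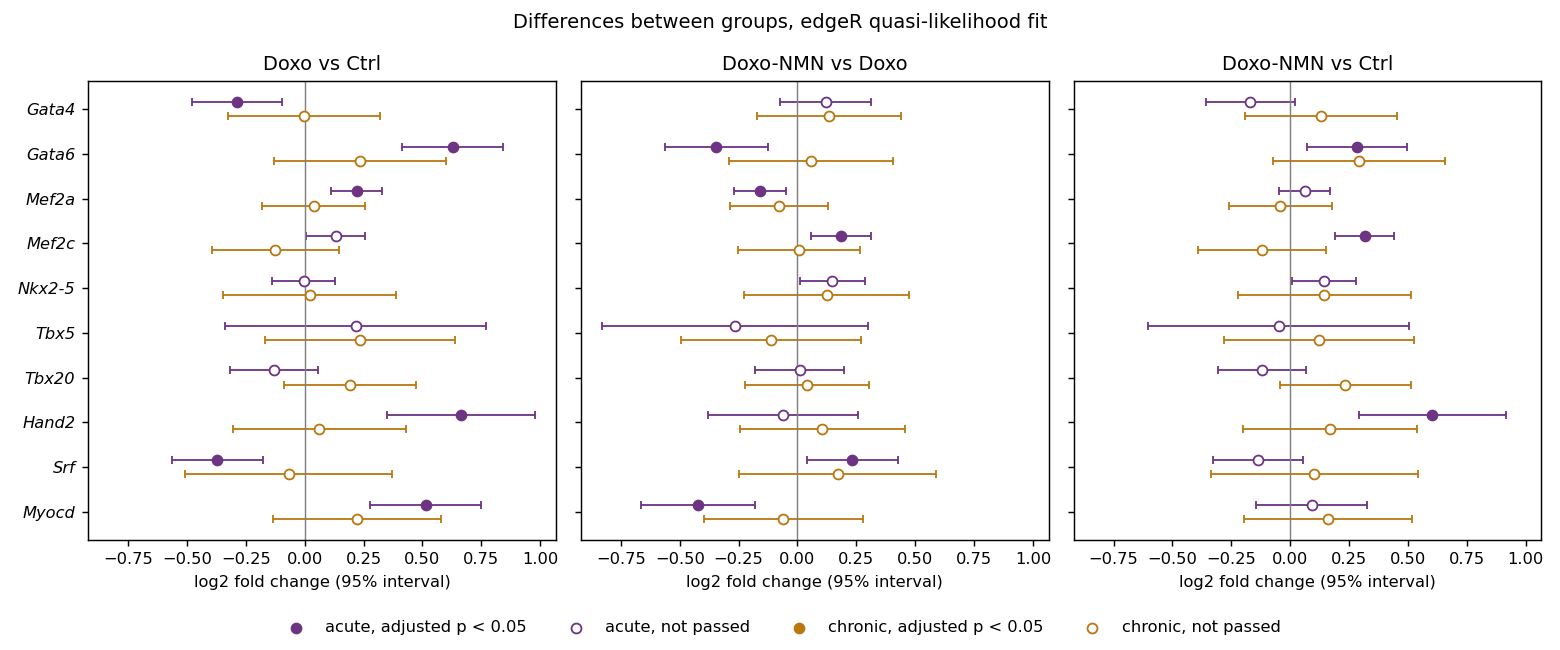
Log2 fold change with its 95% interval (x axes) of each member (rows) in each comparison (Doxo against Ctrl, then Doxo-NMN against Doxo, then against Ctrl) of the acute (purple) and chronic (ochre) studies; filled points passed at an adjusted p under 0.05 in edgeR. In the acute study 6, 5 and 3 members passed; in the chronic study every interval includes 0.

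The genes most like each member were named by the Pearson correlation of log2 CPM over the 40 acute hearts after the group means were removed, as a description with no test, since the hearts share sources of variation such as composition and depth. *Gata4* was most like Tmem171 (0.87), Naif1 (0.84), Slc38a7 (0.83), and *Gata6* most like Acbd4 (0.79), Herpud1 (0.79), Adcy6 (0.79). Mzt1 (0.80) and Pcmtd1 (0.73) were among the nearest to *Mef2a*, and *Mef2c* was nearest Ppp3r1 (0.72), Gabpa (0.70), D3Ertd751e (0.63). *Nkx2-5* came with Abhd17a (0.77), Cox8a (0.72), Dvl1 (0.72), and *Tbx20* with Hyal1 (0.76), Smim14 (0.74), Nat8f4 (0.73). *Hand2* lay nearest Ccrl2 (0.68), Nfil3 (0.67), Tm2d2 (0.63), *Srf* nearest Slc16a1 (0.80), Trak1 (0.80), Clec16a (0.80), and *Myocd* nearest Cdh13 (0.65), Senp2 (0.64), Ciart (0.64). *Tbx5* had the highest values, Ahsg (0.97), Cacna1h (0.96), Gng2 (0.96), but its hearts fall into separate clusters by *Myl4*. Within the 23 hearts with low *Myl4* its nearest genes were Slc27a1 (0.90), Rab5b (0.87) and Ahsg (0.86). No member was among the 3 nearest genes of another member.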

How the data were processed

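Poly(A) RNA of 57 mouse hearts was sequenced by the authors as single-end reads, the acute and the chronic study at different sites. Per the labels and the methods of the study, reads were aligned to mm10 with STAR (2.7.3a in the submitters' processing notes, another release in the methods) and counted with featureCounts 2.0.0. The gene annotation and the strand setting are not given in the sources used here. The deposited values are raw read counts per gene, 1 table for each study, and samples were grouped by their labels. A floor of 3 counts was worth between 0.0576 and 0.0926 CPM in the acute libraries and between 0.126 and 0.169 CPM in the chronic ones.

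Each study was fitted on its own with edgeR 4.0.16 (R 4.3.3), with the low-count filter by group, TMM normalization and the quasi-likelihood F-test over the 3 groups together, and p-values were adjusted by Benjamini-Hochberg over all genes tested. A gene passed at an adjusted p under 0.05, with the 1.5-fold limit of the study given beside it. The interaction of study and doxorubicin was fitted on the Ctrl and Doxo hearts of both tables. The tests were checked on simulated counts. Each heart is a separate mouse. CPM use TMM library sizes, and errors are SD over hearts unless named SE. No pair of libraries was alike enough to be a repeat.

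Alternatives were DESeq2 1.42.0, limma voom (limma 3.58.1), RLE factors, other low-count filters, the compared groups alone, the replicate number as a block, acute counts divided by 2 (most acute counts were even), an atrial marker covariate, hearts split at 100 CPM of Myl4, and leaving out each heart. Named genes were the 10 members, up to 4 genes per list and comparison with the largest change among those that passed, the 3 genes most like each member, and Myl4 and antisense neighbours. A gene among those most like a member is not reported here. Members and lists were chosen with earlier results of these data known. The Doxo replicate 6 settings in low-Myl4 hearts, and leaving out Doxo-NMN hearts for the chronic targets of SRF, were added after the data were seen. Python 3.11.15, pandas 2.3.3 and matplotlib 3.10.9 made the summaries and plots.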

Additional observations from a re-analysis of the deposited data

Results flagged for a closer look

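Of 30 groups of chronic hearts examined, 1 for each member and group, 2 held a heart whose gap to its nearest neighbour was large beside the range of its group, both for *Gata6*. Chronic Ctrl replicate 1 was at 33.8 CPM, with the nearest Ctrl heart at 57.0 and a gap of 0.87 of the range. Chronic Doxo replicate 2 was at 95.4 CPM, with the nearest Doxo heart at 65.6 and a gap of 0.67 of the range. Chance flags about 1 in 20 groups, and the acute groups are too large for this rule.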

How the results depend on the processing

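The number of members that passed for acute Doxo against Ctrl was 6, with 6 to 7 when single hearts were left out and 5 to 7 under the other alternatives. For acute Doxo-NMN against Doxo it was 5, with 4 to 6 when single hearts were left out, 1 within hearts of low Myl4, 3 within hearts of high Myl4 and 3 within hearts of low Myl4 without Doxo replicate 6. Against Ctrl it was 3, with 2 to 3 when single hearts were left out, 5 with the atrial covariate, 1 within hearts of low Myl4 and 1 in these without Doxo replicate 6. These splits hold fewer hearts, and the cause of the other changes was not tested. *Tbx5* in Doxo-NMN against Ctrl turned from -0.05 to 0.46 with the atrial covariate, 0.52 in hearts of low Myl4 and 0.52 in these without Doxo replicate 6. Another 71 values changed sign while passing in neither fit. No member passed in the chronic study under any alternative. The acute against chronic difference was called for 0 members, and for 1 without acute Doxo replicate 6, where the calls over all genes went from 2887 to 4604.

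The deviations of same-numbered hearts correlated from -0.624 to 0.584 in 39 acute pairs (median 0.0605, 18 over 0.1). In 494 differently numbered acute pairs they ran from -0.628 to 0.67 (median -0.0334, 204 over 0.1). In the chronic study they ran from -0.255 to 0.409 in 16 same-numbered pairs (median 0.0223, 4 over 0.1). The 80 other chronic pairs ran from -0.383 to 0.489 (median -0.0137, 21 over 0.1). With ranges this alike, the numbers were not taken as pairs. With the replicate number as a block, 4 members passed for acute Doxo-NMN against Doxo, where *Srf* was at 0.22 (edgeR adjusted p = 0.076), and no other call of a member changed. Group size and spread limit the chronic comparisons, as the intervals beside their values show.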

Other observations

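In the chronic study, the 9 targets of SRF with ternary complex factors had a median log2 difference of 1.08 between Doxo-NMN and Doxo and of 1.32 between Doxo-NMN and Ctrl, and 0 passed in either with edgeR, with 3 and 4 at an unadjusted p under 0.05. These medians rested on Doxo-NMN replicate 3: without it the medians were 0.036 and 0.20, with 0 targets at an unadjusted p under 0.05 in both. *Fosb* was at 173.6 CPM in this heart and between 0.496 and 4.10 in the other Doxo-NMN hearts, and *Fos* at 103.6 CPM against 0.827 to 15.5. In Ctrl hearts *Fosb* was at 1.22 ± 0.475 and *Fos* at 3.26 ± 0.723 CPM. These values were picked after they were seen.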
